A study of Homo sapiens with 6 samples.

Results

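The genes described here are the ligands, receptors, cytoplasmic transducers and inhibitors of the Wnt pathway, measured by RNA sequencing in control and BCL9-depleted breast cells. A list of 48 gene symbols was matched to the gene names of the deposited table, and each symbol matched 1 of its 58676 rows. The rule used gene names and no measured value, although earlier results of these data were known when the list was drawn up. They comprise 12 Wnt ligands, 2 genes of ligand secretion, 10 Frizzled receptors, 2 LRP co-receptors, 3 alternative receptors, 3 Dishevelled genes, 6 genes of the destruction complex, 4 R-spondin receptors or receptor ubiquitin ligases and 6 inhibitors.

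The study asked how gene expression changed on depletion of BCL9 in DCIS.COM, an established human cell line used as a model of ductal carcinoma in situ, the stage at which breast tumour cells are still inside the duct. Both groups were transduced with a lentiviral PLKO.1 vector. The 3 NS control samples received a non-silencing shRNA and the 3 BCL9 KD samples a BCL9 shRNA. Each sample was grown in its own T75 flask in DMEM/F12 with horse serum and antibiotic. The paper does not state whether the flasks of a group came from separate transductions. The spread between samples may therefore be that between flasks only. A single BCL9 shRNA was used, so an effect of that sequence on other transcripts cannot be told apart from loss of BCL9. No Wnt ligand or inhibitor was named among the treatments of either group.

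In canonical Wnt signalling, a lipid-modified ligand binds a Frizzled receptor together with LRP5 or LRP6, and Dishevelled then holds back the destruction complex of Axin, APC, GSK3 and casein kinase 1, which otherwise marks β-catenin for degradation. β-catenin that escapes enters the nucleus and binds TCF/LEF factors on DNA, where BCL9 links it to Pygopus. Several genes that the pathway switches on, among them AXIN2, NKD1, RNF43 and ZNRF3, act back on it as inhibitors.

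Levels are given as FPKM, reads per gene scaled to gene length and to the depth of the sample. The scaling is meant to make levels comparable between genes and between samples. It does not remove a dependence on GC content, described below for NS control replicate 1. The 6 samples held between 15222452 and 26949026 reads on genes. BCL9 KD was compared with NS control by limma on log2(FPKM + 0.5) over the 13745 genes with a mean of at least 0.5 FPKM, and a gene was called changed at a Benjamini-Hochberg adjusted p under 0.05 over all of these genes. BCL9, the targeted gene, was at 6.25, 6.24 and 5.34 FPKM in the 3 NS control samples and at 2.86, 2.78 and 2.59 FPKM in the 3 BCL9 KD samples. It fell by 0.99 on the log2 scale (SE 0.093, limma adjusted p 0.0077), in the direction given by the labels. All 8 markers of basal or myoepithelial breast cells passed the filter on low values, with mean levels from 1.81 FPKM for KRT6A to 566 FPKM for KRT17. Luminal epithelial genes were expressed at unequal levels, with means of 269 FPKM for KRT8, 163 FPKM for KRT18, 0.79 FPKM for KRT19, 17.6 FPKM for ERBB2, 7.97 FPKM for GATA3 and 3.18 FPKM for FOXA1, while ESR1 was at no more than 0.098 FPKM and PGR was listed at 0.

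Of the 48 Wnt genes, 32 reached the mean of 0.5 FPKM and were tested, and 1 of the 32 was called, the Frizzled receptor FZD5, which was lower in BCL9 KD. The background for that count was 5.87% of all tested genes (807 of 13745) called in either direction. At an unadjusted p under 0.05 stood 6 Wnt genes, of which DKK1, PORCN and RYK were higher and FZD5, WNT9A and WNT7B lower in BCL9 KD, where the background over all tested genes was 27.5%. The values of the BCL9 KD samples did not overlap those of the NS control samples in 9 of the 32 (28.1%), 3 higher and 6 lower, where the background over all tested genes was 34.2%. The median log2 fold change was -0.05 over the 32 Wnt genes and 0.04 over all tested genes. The log2 fold change was within 0.2 of 0 in 24 of the 32 (75.0%), against 50.6% of all tested genes. RNA was extracted from whole flasks, so fewer cells expressing a gene and less RNA per cell cannot be told apart.

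**Figure D1:**
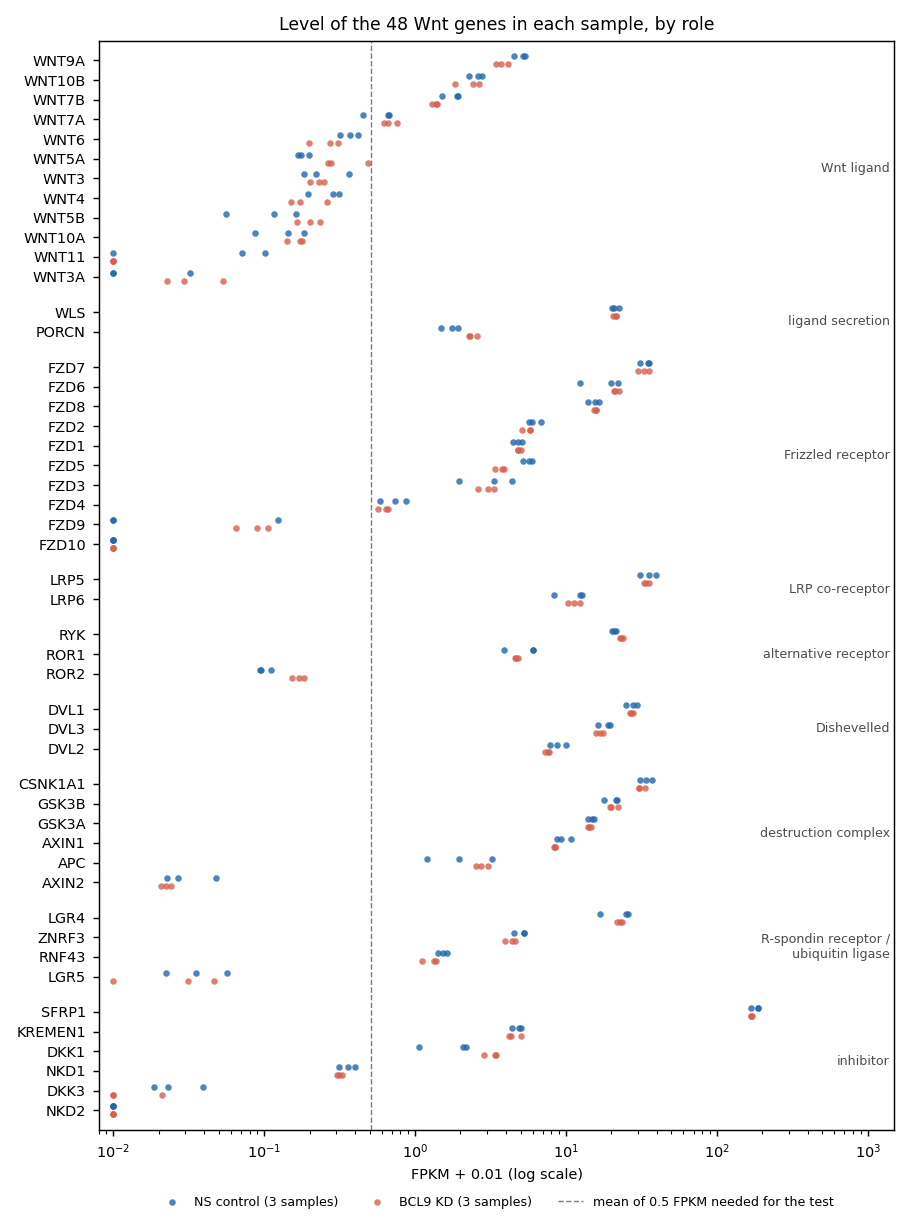
Level of each of the 48 Wnt genes in FPKM + 0.01 on a log axis, grouped by role, with 1 point per sample in NS control (blue, 3 samples) and BCL9 KD (red, 3 samples); the dashed line marks the mean of 0.5 FPKM needed for the test. SFRP1 lies far to the right of all other members, most Wnt ligands, AXIN2, LGR5 and NKD1 lie to the left of the line, and for most genes the blue and red points overlap.

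The upstream sequences of FZD5, DKK1 and WNT9A are shown because FZD5 carried the only called change among the members, DKK1 had the largest fold change and WNT9A was the most abundant ligand and differed without overlap. Each is the 250 bases before the transcription start in RefSeq on GRCh38.p14, read 5′ to 3′ on the strand of the gene. That start is not the one of the gene model that was counted. The counted models start at position 207769563 for FZD5, 52314296 for DKK1 and 227947898 for WNT9A, so the windows do not adjoin them. FZD5 lies on the minus strand of chromosome 2 (window chr2:207769907-207770156), DKK1 on the plus strand of chromosome 10 (chr10:52314031-52314280) and WNT9A on the minus strand of chromosome 1 (chr1:227947933-227948182). Capitals mark the cores bound by TCF/LEF factors.
FZD5: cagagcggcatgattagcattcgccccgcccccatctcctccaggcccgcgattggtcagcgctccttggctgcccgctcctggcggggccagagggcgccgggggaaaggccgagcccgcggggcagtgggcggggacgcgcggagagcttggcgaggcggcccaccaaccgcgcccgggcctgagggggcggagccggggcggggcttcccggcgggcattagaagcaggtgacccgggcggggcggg
DKK1: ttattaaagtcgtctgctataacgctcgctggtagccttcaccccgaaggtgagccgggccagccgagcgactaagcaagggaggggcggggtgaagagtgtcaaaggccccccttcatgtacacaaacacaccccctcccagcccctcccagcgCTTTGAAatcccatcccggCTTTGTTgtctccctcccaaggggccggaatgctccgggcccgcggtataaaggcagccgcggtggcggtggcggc
WNT9A: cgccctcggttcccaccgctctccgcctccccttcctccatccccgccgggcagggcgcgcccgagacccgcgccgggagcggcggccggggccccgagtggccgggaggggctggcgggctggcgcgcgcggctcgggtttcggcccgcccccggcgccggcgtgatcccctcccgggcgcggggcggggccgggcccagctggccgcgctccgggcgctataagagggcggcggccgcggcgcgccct
The search covered the core CTTTGAT and its variants CTTTGAA, then CTTTGTT and then CTTTGTA on both strands, and the palindromic STAT site TTCNNNGAA, in the 250 bases before and 50 bases after each start. Promoters were found for 32 of the 48 genes. Those of AXIN2, NKD1, ZNRF3, LGR5, FZD7 and SFRP1, among others, were not in the promoter set and were not searched. DKK1 held 2 TCF/LEF cores, CTTTGAA beginning 95 bases and CTTTGTT beginning 76 bases before the start, both on the strand of the gene. Among all 35116 promoters of the table, 13.8% held at least 1 such core and 1.58% held at least 2. Of the other 31 genes with a promoter, WNT3 alone held a core, and the STAT site was found in ROR1 and in 1 of the pair of APC promoters, against 7.66% of all promoters. None of these motifs was found in the windows of FZD5, WNT9A or PORCN. The 250 bases shown held 30 CpG dinucleotides for FZD5, 18 for DKK1 and 44 for WNT9A. A match is a description of the letters in the window and was not measured as binding.

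Few Wnt ligands were expressed. Of the 12, 4 reached the mean of 0.5 FPKM, namely WNT9A, WNT10B, WNT7B and WNT7A. The FPKM of the 12 ligands summed to between 9.94 and 11.9 in NS control and between 8.93 and 9.92 in BCL9 KD samples, and WNT9A made up 42.4% of their summed mean level. WNT9A was at 5.21, 5.34 and 4.50 FPKM in NS control and at 3.45, 4.09 and 3.68 FPKM in BCL9 KD. All 3 BCL9 KD samples lay below all 3 NS control samples. The log2 fold change was -0.38 (SE 0.10, 95% interval -0.62 to -0.14), and the limma adjusted p of 0.071 missed the threshold. WNT9A passed it when NS control replicate 3 was left out (log2 fold change -0.45, limma adjusted p 0.044), a fit that called 12.5% of all tested genes.

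WNT7B, a ligand of mammary and other epithelia, had the next lowest fold change among the ligands. It was at 1.92, 1.90 and 1.50 FPKM in NS control and at 1.37, 1.40 and 1.29 FPKM in BCL9 KD. Here too the groups did not overlap (log2 fold change -0.29, SE 0.12, limma adjusted p 0.18). WNT10B ranged from 2.27 to 2.76 FPKM in NS control and from 1.83 to 2.62 FPKM in BCL9 KD, and WNT7A from 0.445 to 0.663 and from 0.613 to 0.754 FPKM. In both of these the groups overlapped.

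The other 8 ligands were below the mean of 0.5 FPKM and were not tested. WNT5A, the best known ligand of β-catenin-independent Wnt signalling, was at 0.187, 0.158 and 0.166 FPKM in NS control and at 0.481, 0.266 and 0.254 FPKM in BCL9 KD, from 75 reads in all in NS control and 148 in BCL9 KD. All 3 BCL9 KD values were the higher ones, but when every gene above 0 was tested the log2 fold change of 0.30 had a limma adjusted p of 0.39. WNT5A shares its locus with the antisense gene WNT5A-AS1 (mean of 0.431 FPKM), and neither the kit nor the counting was stated to use strand, so reads of the antisense gene may be among those counted. WNT5B was also higher without overlap, and WNT6 lower, at 4 to 18 and 5 to 14 reads per sample. In the fit of every gene above 0 the limma adjusted p was 0.40 for WNT5B and 0.53 for WNT6. WNT3A and WNT11 had at most 5 reads in any sample.

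Ligand secretion rests on PORCN, the acyltransferase that attaches the lipid to Wnt proteins, and on WLS, the carrier that takes them to the cell surface. PORCN was at 1.91, 1.48 and 1.74 FPKM in NS control and at 2.29, 2.25 and 2.56 FPKM in BCL9 KD. All 3 BCL9 KD samples lay above all 3 NS control samples, with a log2 fold change of 0.38 (SE 0.12, 95% interval 0.11 to 0.65, limma adjusted p 0.095). WLS was at 22.6, 20.9 and 20.2 FPKM in NS control and at 21.5, 21.4 and 20.3 FPKM in BCL9 KD, and these values overlapped (log2 fold change -0.01, 95% interval -0.18 to 0.16). PORCN passed the threshold after each sample had been corrected for the GC content of the genes (log2 fold change 0.47, limma adjusted p 0.039), a setting in which 12.0% of all tested genes were called.

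FZD5 was the member that passed the test. Frizzled genes encode the membrane receptors of Wnt proteins, and the deposited table places FZD5 (ENSG00000163251) at chr2:207762586-207769563 on the minus strand of hg38. It was at 5.96, 5.68 and 5.15 FPKM in NS control and at 3.89, 3.78 and 3.38 FPKM in BCL9 KD, a mean of 5.60 ± 0.41 against 3.68 ± 0.27 FPKM (SD, n = 3 each). The lowest NS control sample lay above the highest BCL9 KD sample. FZD5 fell by 0.54 on the log2 scale (SE 0.092, 95% interval -0.76 to -0.32, limma adjusted p 0.030), a fold of 0.686 on the FPKM + 0.5 scale. Its share of the summed FPKM of the 10 Frizzled genes was 7.06%, 6.22% and 5.91% in the NS control samples and 4.31%, 4.47% and 3.85% in the BCL9 KD samples. An exact permutation test of 3 against 3 samples gave 0.1, the smallest two-sided p that this design allows. Without the filter on low FPKM, over 30731 genes, the limma adjusted p was 0.076. It rose to 0.13 without NS control replicate 2, to 0.14 without BCL9 KD replicate 2 and to 0.16 without BCL9 KD replicate 3, at log2 fold changes between -0.56 and -0.49, and in these 3 fits that left out a sample between 5 and 13 genes were called in the whole table.

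**Figure D2:**
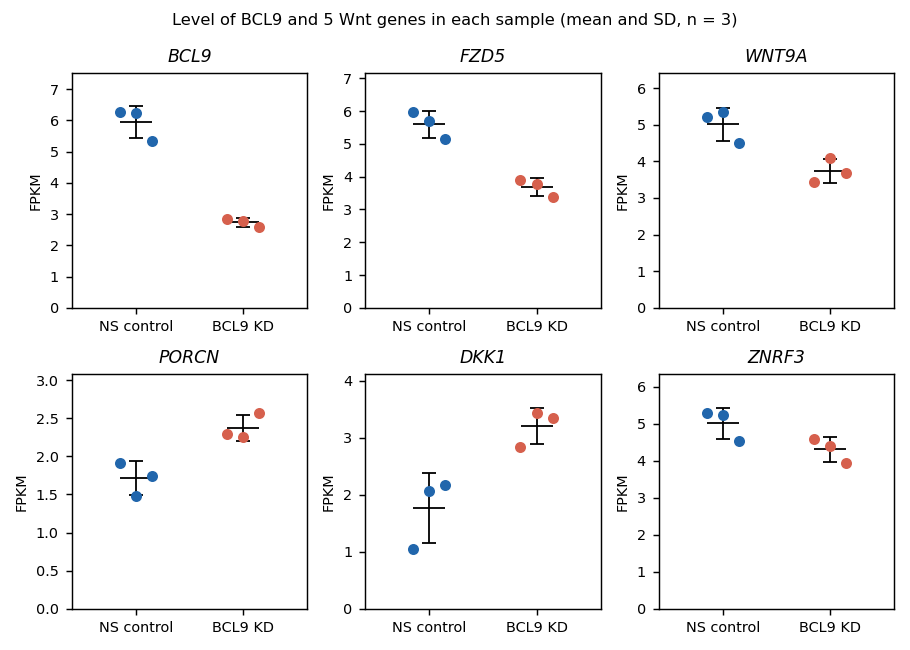
FPKM on linear axes from 0 in the 3 NS control (blue) and 3 BCL9 KD (red) samples for BCL9, FZD5, WNT9A, PORCN, DKK1 and ZNRF3, with the mean and SD as black bars. BCL9, FZD5 and WNT9A lie lower in every BCL9 KD sample and PORCN and DKK1 higher, while the ZNRF3 groups overlap.

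FZD5 was not among the abundant Frizzled genes. FZD7, FZD6 and FZD8 together made up 78.2% of the summed Frizzled level, and FZD9 and FZD10 were at or near 0. FZD7 was at 35.1, 35.5 and 30.8 FPKM in NS control and at 35.3, 30.0 and 32.6 FPKM in BCL9 KD. These overlapped, with a log2 fold change of -0.05 and a 95% interval of -0.26 to 0.17. FZD8 ranged from 14.0 to 16.5 FPKM in NS control and from 15.4 to 15.8 FPKM in BCL9 KD. FZD1, FZD2, FZD3 and FZD4 also overlapped between the groups, at 4.46 to 5.09, 5.11 to 6.86, 1.94 to 4.40 and 0.562 to 0.857 FPKM over the 6 samples. The summed level of the 10 receptors was between 84.5 and 91.4 FPKM in NS control and between 84.6 and 90.3 FPKM in BCL9 KD, and so overlapped.

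FZD6, a receptor with a part in planar cell polarity, was at 12.3, 19.8 and 22.0 FPKM in NS control and at 20.8, 21.2 and 22.5 FPKM in BCL9 KD. NS control replicate 1 alone was low, and the log2 fold change of 0.29 (95% interval -0.19 to 0.76) came to 0.04 when that sample was left out. When NS control replicate 3 was left out it came to 0.45. For most Wnt genes of low GC content NS control replicate 1 was also low. NS control replicate 1 lay below the mean of the other NS control samples in 8 of 8 tested members with a GC content under 45%, by a median of 0.66 on the log2 scale, and in none of the 16 members with a GC content of at least 55%. Over all genes with a known GC content, its median deviation was -0.38 in the quartile of lowest GC content and 0.10 in the quartile of highest, whereas the medians of the other 5 samples stayed between -0.05 and 0.13 in every quartile.

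**Figure D3:**
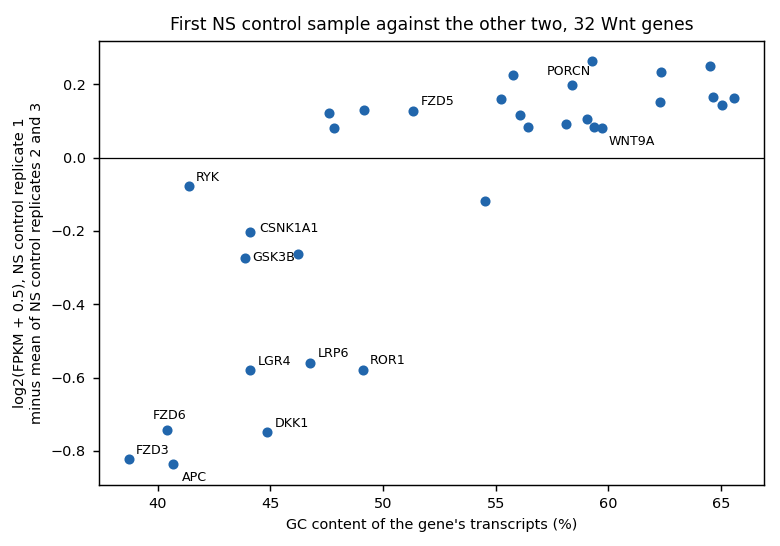
GC content of the transcripts of the 32 tested Wnt genes (x axis, %) against the level of NS control replicate 1 minus the mean of the other NS control samples on the log2(FPKM + 0.5) scale (y axis), 1 point per gene. The 8 genes with a GC content under 45% all lie below 0, down to -0.84 for APC, while FZD5, WNT9A and PORCN lie above 0 at no more than 0.20.

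The co-receptors were both well expressed. LRP5 was at 39.2, 35.6 and 31.1 FPKM in NS control and at 35.4, 33.7 and 32.8 FPKM in BCL9 KD, 3.09 times the mean level of LRP6. LRP6 ranged from 8.33 to 12.7 FPKM in NS control, with the lowest value in replicate 1, and from 10.2 to 12.4 FPKM in BCL9 KD. Neither differed beyond the spread of the samples (limma adjusted p 0.76 and 0.89).

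Among the receptors outside the Frizzled family, RYK, an atypical tyrosine kinase, was the most abundant. It was at 20.0, 21.5 and 20.8 FPKM in NS control and at 22.6, 23.9 and 23.2 FPKM in BCL9 KD. The groups did not overlap, and the log2 fold change was 0.16 (SE 0.065, limma adjusted p 0.17) and 0.02 after the GC correction. ROR1, a receptor tyrosine kinase for WNT5A, was at 3.87, 6.01 and 6.04 FPKM in NS control and at 4.79, 4.68 and 4.55 FPKM in BCL9 KD. With all samples its log2 fold change was -0.14 (limma adjusted p 0.59). Without NS control replicate 1, where 5.25% of all tested genes were called, it was -0.33 (limma adjusted p 0.049), and after the GC correction with all samples -0.09. ROR2 was below the filter, at 0.083, 0.085 and 0.102 FPKM in NS control and at 0.175, 0.159 and 0.143 FPKM in BCL9 KD. All 3 BCL9 KD values of ROR2 were the higher ones, from 30 reads in all in NS control and 56 in BCL9 KD. When every gene above 0 was tested, its log2 fold change of 0.16 had a limma adjusted p of 0.30. WNT5A and ROR2 were picked out after their values were seen.

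**Figure D4:**
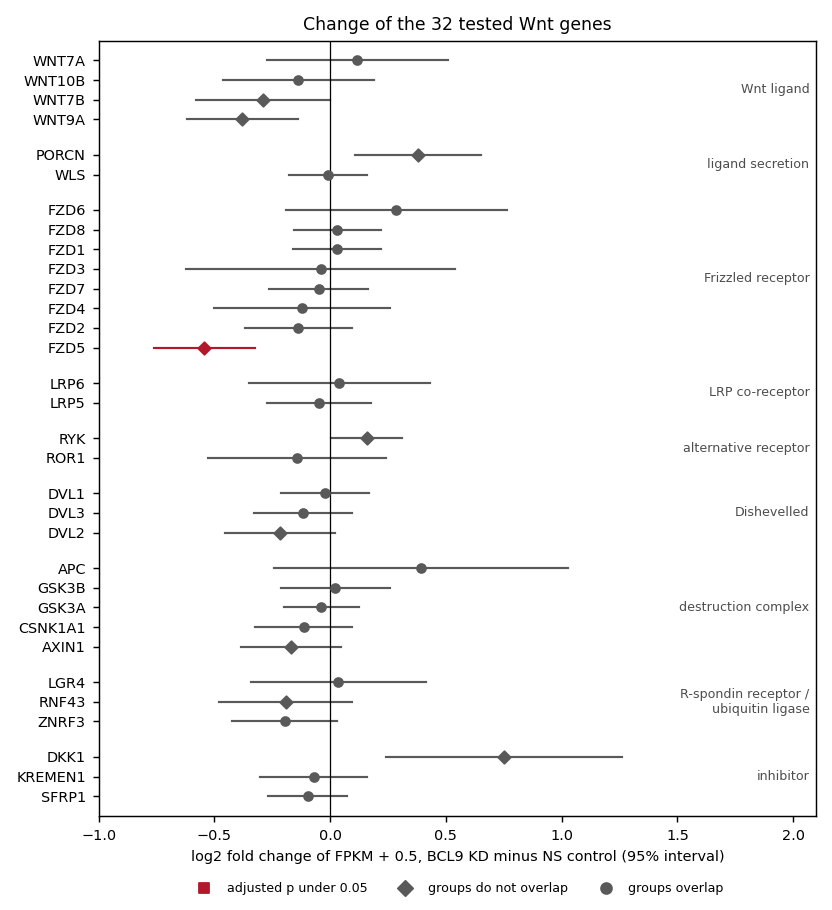
Log2 fold change of FPKM + 0.5, BCL9 KD minus NS control, with its 95% interval (x axis) for the 32 tested Wnt genes grouped by role; diamonds mark genes whose groups do not overlap and red an adjusted p under 0.05. FZD5 at -0.54 is the single red point, WNT9A, WNT7B, PORCN, RYK and DKK1 have intervals that leave out 0 without being called, and most points lie within 0.2 of 0.

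The Dishevelled genes, which relay the signal from Frizzled, were expressed at similar levels in both groups. DVL1 was at 29.7, 28.0 and 25.0 FPKM in NS control and at 27.1, 26.4 and 27.8 FPKM in BCL9 KD (log2 fold change -0.02, 95% interval -0.21 to 0.17). DVL2 was lower without overlap, from 7.81 to 10.03 FPKM in NS control against 7.23 to 7.75 FPKM in BCL9 KD (log2 fold change -0.22, limma adjusted p 0.22). Its log2 fold change ranged from -0.30 to -0.12 over 17 alternative settings. DVL3 ranged from 16.3 to 19.4 and from 15.7 to 17.5 FPKM and overlapped.

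No gene of the destruction complex was called in limma or voom, where 5.87% and 10.2% of all tested genes were called. In limma 0 of the 5 tested had an unadjusted p under 0.05, where the background over all tested genes was 27.5%. CSNK1A1, the casein kinase that makes the priming phosphorylation on β-catenin, was the most abundant gene of the complex. It was at 30.8, 37.1 and 34.0 FPKM in NS control and at 33.4, 30.3 and 30.2 FPKM in BCL9 KD (log2 fold change -0.11, limma adjusted p 0.43). The scaffold AXIN1 ranged from 8.70 to 10.8 FPKM in NS control and from 8.36 to 8.48 FPKM in BCL9 KD, lower without overlap at a limma adjusted p of 0.27. The kinases GSK3A (13.9 to 15.4 FPKM over the 6 samples) and GSK3B (17.8 to 22.2 FPKM) overlapped between the groups, with limma adjusted p of 0.74 and 0.90. APC, the large scaffold, was at 1.19, 1.94 and 3.23 FPKM in NS control and at 3.04, 2.54 and 2.73 FPKM in BCL9 KD. The NS control values spanned those of BCL9 KD, and its interval of -0.24 to 1.03 was the widest among the members. The APC log2 fold change of 0.39 was 0.11 without NS control replicate 1 and 0.68 without NS control replicate 3.

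Of the feedback genes of the pathway, AXIN2, NKD1, NKD2 and LGR5 were below the filter on low values. AXIN2, the Axin gene that canonical signalling switches on in most tissues, had 1 to 4 reads in each sample, and LGR5, a stem cell receptor for R-spondins, at most 5. NKD1, an inhibitor that binds Dishevelled, was at 0.390, 0.349 and 0.302 FPKM in NS control and at 0.317, 0.304 and 0.294 FPKM in BCL9 KD, and NKD2 was listed at 0 in all 6 samples. At these read numbers a fall or a modest rise of AXIN2, LGR5 or NKD2 was not detectable. The ubiquitin ligases RNF43 and ZNRF3, which remove Frizzled from the membrane, passed the filter. RNF43 was at 1.40, 1.62 and 1.51 FPKM in NS control and at 1.32, 1.37 and 1.10 FPKM in BCL9 KD. ZNRF3 was at 5.29, 5.24 and 4.53 FPKM in NS control and at 4.60, 4.39 and 3.95 FPKM in BCL9 KD. The RNF43 groups did not overlap and the ZNRF3 groups did, and neither was called (log2 fold changes -0.19, SE 0.12, limma adjusted p 0.34, and -0.20, SE 0.097, limma adjusted p 0.24). Over 17 alternative settings the fold changes ranged from -0.26 to -0.11 for RNF43 and from -0.26 to -0.10 for ZNRF3. LGR4, the R-spondin receptor that was expressed, was at 16.8, 25.0 and 25.8 FPKM in NS control and at 23.6, 22.7 and 21.9 FPKM in BCL9 KD, with only NS control replicate 1 outside the range of 21.9 to 25.8 FPKM.

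SFRP1, a secreted protein that binds Wnt proteins and keeps them from their receptors, was the most abundant of the 48 genes. It was at 188, 189 and 167 FPKM in NS control and at 170, 168 and 168 FPKM in BCL9 KD. The groups overlapped, with a log2 fold change of -0.10 and a 95% interval of -0.27 to 0.07. Its mean level was 17.0 times the summed mean level of the 12 ligands and exceeded that of 98.8% of all tested genes.

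DKK1, a secreted inhibitor that binds LRP5 and LRP6, is itself a target of canonical Wnt signalling. It was at 1.06, 2.06 and 2.17 FPKM in NS control and at 2.85, 3.43 and 3.36 FPKM in BCL9 KD, from a mean of 108 reads per sample. All 3 BCL9 KD samples lay above all 3 NS control samples. Its log2 fold change of 0.75 (SE 0.21, 95% interval 0.24 to 1.26) was the largest among the members, with a limma adjusted p of 0.082. It passed the threshold with voom on reads recovered from the FPKM (0.98, limma adjusted p 0.046), where 10.2% of all tested genes were called. DKK1 has a GC content of 44.9%, and without NS control replicate 1, its lowest sample, the log2 fold change was 0.50 (limma adjusted p 0.051). With the GC correction of all samples it was 0.73 (limma adjusted p 0.058). KREMEN1, a receptor that DKK1 uses to remove LRP6, ranged from 4.41 to 5.05 FPKM in NS control and from 4.21 to 5.03 FPKM in BCL9 KD, and DKK3 had at most 3 reads in any sample.

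Of 61 other genes of the pathway, 31 were tested, 1 was called higher and 1 lower, a share near the 5.87% of all tested genes. SOSTDC1, a secreted antagonist of BMP and Wnt signals, was at 1.82, 1.82 and 2.63 FPKM in NS control and at 4.78, 4.80 and 4.70 FPKM in BCL9 KD. SOSTDC1 rose by 1.04 on the log2 scale (SE 0.13, limma adjusted p 0.016). GPC4, a heparan sulphate proteoglycan of the cell surface that binds Wnt proteins, was at 5.39, 4.93 and 4.40 FPKM in NS control and at 2.84, 2.93 and 2.95 FPKM in BCL9 KD. GPC4 fell by 0.66 on the log2 scale (SE 0.094, limma adjusted p 0.019). In both genes the groups were fully apart. The R-spondins that LGR4 binds were listed at 0 or, for RSPO2, at no more than 0.0321 FPKM.

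Of 9 nuclear factors of the pathway, 8 were tested and 1 was called, the targeted BCL9, where the background was 5.87%. In 4 of the 8, BCL9 among them, the groups did not overlap and BCL9 KD was lower, where the background was 34.2%. CTNNB1, the gene of β-catenin, was at 263, 283 and 266 FPKM in NS control and at 248, 224 and 224 FPKM in BCL9 KD, without overlap (log2 fold change -0.22, limma adjusted p 0.11). Of 23 genes listed as Wnt targets, 16 were tested and CCND1, which encodes cyclin D1, was called, a share near the 5.87% of all tested genes. CCND1 was at 96.5, 96.3 and 81.3 FPKM in NS control and at 67.0, 61.6 and 60.0 FPKM in BCL9 KD, a fall of 0.53 on the log2 scale (SE 0.091, limma adjusted p 0.030). Of the members on that list, AXIN2, NKD1 and LGR5 were too low to test, and DKK1, ZNRF3 and RNF43 missed the threshold.

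Of the markers of other cell types, the endothelial list had 1 of 4 genes tested, PECAM1, which rose by 0.61 on the log2 scale (limma adjusted p 0.048), while CDH5, VWF and KDR were at no more than 0.163 FPKM. The leukocyte list had 1 of 5 genes tested, CD14, at 0.73 on the log2 scale (limma adjusted p 0.081), and PTPRC had reads in 1 sample. The fibroblast list had 1 of 5 genes tested, COL1A1 (log2 fold change 0.10, limma adjusted p 0.69). Of the epithelial list, which these cells share, 5 of 5 were tested and none was called in limma. Of these, 2 had an unadjusted p under 0.05, and 3 (KRT8, KRT18 and CDH1) were lower in BCL9 KD without overlap. Over all tested genes the shares were 5.87% called, 27.5% at an unadjusted p under 0.05 and 34.2% without overlap. Of the 8 basal or myoepithelial markers none was called, and TP63 was higher and EGFR lower without overlap. ERBB2 was also lower without overlap and was not called. The part of other cell types in the values of the Wnt genes was not tested.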

How the data were processed

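RNA of 3 NS control and 3 BCL9 KD samples was sequenced by a service provider from paired-end libraries. According to the submitters' processing notes, the authors used CASAVA, STAR and HTSeq 0.6.1 with hg38, and they deposited FPKM per gene with the gene length in bases. The methods also state that Tophat parsed the alignments, and they name Cufflink without a step. FPKM times gene length, divided by the value of a single read in each sample, gave whole reads within a tolerance of 0.1 for 100% of the values, and these reads gave the depths. Intervals cover the spread between these samples only.

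The comparison used R 4.3.3 and limma 3.58.1 with a mean-variance trend on log2(FPKM + 0.5). Fold changes on that scale understate those of low genes. GC content came from GRCh37 transcripts and was known for 98.8% of the tested genes. The correction was a loess curve with a span of 0.3 per sample. The test was run on simulated reads with the same extra spread between samples set for all genes and no effect of GC content. That simulation therefore does not give the error rate of the test in these data. Alternatives are given with the closing results.

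Members and lists were chosen with earlier results of these data known. Values per sample are given for members that were called, that did not overlap with a log2 fold change of at least 0.3 in size, that are feedback genes, or that are the highest of their role. Others were named after their values were seen.

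Replicate numbers 1 to 3 occur in both groups. Deviations of same-numbered samples correlated between -0.15 and -0.0029, so the numbers were not taken to pair samples.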

Additional observations from a re-analysis of the deposited data

How the results depend on the processing

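The number of Wnt members called was recomputed under 17 alternatives. It was 2 with the GC correction, where 1633 of all 13577 genes tested were called. With voom on recovered reads it was 2, where 1403 of 13745 were called. Without a filter on low FPKM it was 0, where 142 of 30731 genes were called. It was 0 with the replicate block and 0 with both the GC correction and that block, where 174 of 13577 were called. Leaving out 1 sample gave between 0 and 2, where between 5 and 1712 of 13745 genes were called. With the replicate block no gene of the table was called in limma, where 3235 genes, 4 of them members, had an unadjusted p under 0.05. The block gave FZD5 a limma adjusted p of 0.085, and 0.060 with the GC correction, and without the filter on low FPKM it was 0.076. FZD5 kept its direction under all 17 alternatives, with log2 fold changes from -0.60 to -0.47, and was called in 11. The fold changes of WNT9A (-0.45 to -0.29), PORCN (0.30 to 0.47) and DKK1 (0.50 to 0.98) also kept their direction, and each was called in 1 alternative.

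Fold changes near 0 changed sign. With the GC correction, with or without the replicate block, WLS was at 0.042, FZD7 at 0.033, LRP5 at 0.029, DVL1 at 0.028 and LGR4 at -0.0042. Leaving out 1 sample moved WLS between -0.043 and 0.034, FZD7 between -0.11 and 0.0087, LRP5 between -0.14 and 0.029, DVL1 between -0.088 and 0.033 and LGR4 between -0.16 and 0.14. Of the 13 tested members with no fold change printed here or above, FZD1, FZD3, FZD8, LRP6, GSK3A, GSK3B and KREMEN1 changed sign in at least 1 alternative. The number of tested members with a log2 fold change below 0 was 21 of 32 (all tested genes 44.6%), 17 with the GC correction (43.4%), 24 with median-of-ratios scaling (48.2%) and 22 with quantile normalization (51.7%). The cause of these changes was not tested. Adding 1 or 0.1 FPKM, a mean of at least 1 FPKM, median-of-ratios scaling, quantile normalization and a fit without the trend each gave 1 called member, FZD5. In these settings between 332 and 1083 genes of the whole table were called. Depth limits the members under 10 reads, where counting error alone is large. The 95% intervals of the tested members had half-widths from 0.153 to 0.636 on the log2 scale, with a median of 0.234.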
